A study of Mus musculus with 6 samples.

Results

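Mup3, Mup4, Mup5, Mup6, Mup20 and Mup21 are the members of the mouse major urinary protein family whose sequences stand furthest from the rest. They are 6 of the 20 Mup rows in a table of 24346 genes. They were chosen by name, as the genes in which short reads are least shared with other copies, with their FPKM values in these 6 livers already known. Their levels and fold changes are therefore a description and carry no test. FPKM (fragments per kilobase of transcript, scaled to the mapped fragments of the library) is a level corrected for gene length and library size. It was measured by RNA-seq of whole liver from 8-week-old male C57/BL6 mice, each killed 24 h after an intraperitoneal injection of 0.6 μl CCl4 (carbon tetrachloride) per g of body weight, diluted in sunflower oil. The 3 control mice carry the genotype label wt and are described in the study design as med23 f/f, with floxed alleles and no deletion. The 3 mice labelled med23Δli lack Med23, a subunit of the Mediator complex, in hepatocytes, because Albumin-cre drives the recombination; other liver cells keep the gene. All 6 mice received CCl4, so the comparison is of genotypes in injured liver.

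Whole-gene Med23 did not separate the groups. It read 3.42, 2.97 and 4.14 FPKM in control livers against 3.40, 3.40 and 2.91 FPKM in those labelled med23Δli, a log2 fold change of -0.11 (limma, adjusted p = 0.685). This level covers all exons and not the floxed part alone, so it does not check the labels, and groups are named here as labelled. Hepatocyte markers (Alb, Apoa1, Ttr, Cps1 and Serpina1a) summed to 23010 to 32567 FPKM in control and 18867 to 25270 FPKM in med23Δli livers, with Alb alone at 12624 to 22376 FPKM, so all 6 libraries were rich in hepatocyte RNA. In RNA from whole tissue, fewer hepatocytes and less RNA per hepatocyte cannot be told apart.

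Major urinary proteins are small lipocalins, barrel-shaped carriers that hydrophobic molecules enter. Male mouse hepatocytes secrete them in large amounts, the kidney passes them into urine, and there they bind volatile pheromones and act as scent signals themselves. Their transcription in liver is male-biased and depends on pulsatile growth hormone acting through STAT5b, with thyroid hormone and glucocorticoid as further inputs. Mup20 encodes darcin, the male pheromone that attracts females. Mup4 and Mup5 are known mainly from nasal, lacrimal and salivary glands.

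The 22 protein-coding Mup genes of the mm10 annotation (GENCODE M21) form a single cluster of 2.19 Mb on chromosome 4, and the divergent members sit at its edges. Mup4 (chr4:59956804-59960710, minus strand) and Mup6 (chr4:59964294-60007274, plus strand) are the 1st and 2nd genes of the cluster. Mup5 (chr4:61831319-61835233), Mup20 (chr4:62050234-62054158), Mup3 (chr4:62083476-62087342) and Mup21 (chr4:62147932-62150863), all on the minus strand, are the 19th to 22nd. The 16 genes between them are the near-identical part of the family. Coding sequences of those 16 genes shared at least 96.26% of aligned bases in every pair, with a median of 99.1%. Between members of the divergent set the identity ran from 84.8% to 96.3% with a median of 88.1%, and between the sets it ran from 82.3% to 91.5%. The closest pair of members was Mup3 and Mup21, at 96.3% or 20 differing bases. Mup4 and Mup5 shared 93.1% (37 differing bases), Mup4 and Mup6 92.4% (41 differing bases), and Mup20 was nearest to Mup5 at 91.7%.

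This divergence sets how far a read can be placed. Every stretch of 150 bases, the read length used, was cut from the annotated transcript with the longest coding sequence of each Mup gene. It was searched for, as an exact match, in the transcripts of all other genes. In Mup3, Mup4, Mup5, Mup6 and Mup21, 100% of these stretches occurred in no other gene. In Mup20 the figure was 68.9%, and the remaining stretches were shared with the pseudogene Mup-ps19 alone. In the 16 near-identical genes it ran from 0% to 59.6%, with a median of 21.4%. A level read for a divergent member is thus largely its own, whereas levels of the near-identical genes depend on how shared reads were divided, which the sources used here do not describe.

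Start-site sequences were available for 4 members in the RefSeq promoter table (GRCm38.p6, the mm10 sequence). They are shown because Mup3 and Mup21 were expressed in these livers and Mup4 and Mup6 were at or near 0, with the TATA motif TATATAA in capitals. Each run of 110 bases ends at the base before the RefSeq start site, at chr4:62087318-62087427 for Mup3, chr4:62150842-62150951 for Mup21 and chr4:59960668-59960777 for Mup4 on the minus strand, and at chr4:60003371-60003480 for Mup6 on the plus strand. These RefSeq starts lie inside the GENCODE spans given above, so part or all of each run falls within the GENCODE gene.
Mup3: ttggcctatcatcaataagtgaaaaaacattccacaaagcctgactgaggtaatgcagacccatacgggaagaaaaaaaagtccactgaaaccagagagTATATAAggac
Mup21: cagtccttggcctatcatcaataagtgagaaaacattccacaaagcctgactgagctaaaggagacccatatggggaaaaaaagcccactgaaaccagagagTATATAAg
Mup4: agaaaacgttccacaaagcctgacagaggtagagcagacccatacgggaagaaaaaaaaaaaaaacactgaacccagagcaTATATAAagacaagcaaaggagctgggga
Mup6: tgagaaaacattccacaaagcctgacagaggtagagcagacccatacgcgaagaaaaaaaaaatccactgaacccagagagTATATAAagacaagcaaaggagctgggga

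All 4 held TATATAA, a word found on either strand in 3.04% of 32851 RefSeq promoter windows, each the 250 bases before the start. It ended 4 bases before the RefSeq start in Mup3, 1 base before it in Mup21 and 22 bases before it in both Mup4 and Mup6. The windows of these 4 genes are thus not in register. TATATAA is common in the family and sets no member apart: 7 of the 10 other Mup genes with an entry held it before their RefSeq start. Upstream of it lay an uninterrupted run of adenines, 8 bases long in Mup3, 7 in Mup21, 14 in Mup4 and 10 in Mup6, against 4 to 15 as the longest run in the other 10 Mup windows. Aligned over these 250 bases, with gaps counted as differences, Mup4 and Mup6 shared 90.9% of 252 positions and Mup3 and Mup21 89.1% of 256. The other pairs shared 68.2% to 75.8% of 269 to 277 positions. Those pairs set a window with TATATAA 1 or 4 bases from the start against a window with it 22 bases away. Bases left unpaired by this offset count as differences, so the lower figures are not a measure of promoter divergence alone. Identity of those pairs apart from the offset was not tested. The STAT word TTCNNNGAA (in 7.02% of all windows, both strands searched) occurred in 0 of these 4 windows and in 0 of all 14 Mup windows.

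Mup20, the darcin gene, was the most abundant member. It read 6254, 7201 and 3803 FPKM in control livers against 2589, 2843 and 3450 FPKM in those labelled med23Δli. The groups did not overlap, but control replicate 3 lay close to med23Δli replicate 3. Means were 5753 ± 1754 and 2961 ± 443 FPKM (SD, n = 3 each), a ratio of 1.94 in favour of the control. The fitted log2 fold change, on log2(FPKM + 0.1), was -0.92 ± 0.25 (SE). In control livers Mup20 was the 9th, 11th and 15th most abundant of all genes, and in med23Δli livers the 18th, 23rd and 27th.

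Mup3 read 5586, 4368 and 4370 FPKM in control livers against 1853, 2786 and 1891 FPKM in the med23Δli livers. Every med23Δli liver was below every control liver. Means were 4775 ± 702 and 2177 ± 528 FPKM (SD, n = 3 each), a ratio of 2.19 and a log2 fold change of -1.15 ± 0.21 (SE). Its rank among all genes went from 12 or 13 in the control livers to between 28 and 38 in the others.

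Mup21, the closest relative of Mup3, was expressed at a lower level and differed more. Control livers read 173, 389 and 188 FPKM and med23Δli livers 67.7, 69.8 and 38.6 FPKM, again without overlap. Control replicate 2 was more than 200 FPKM above the other 2 controls. Means were 250.3 ± 120.6 and 58.7 ± 17.4 FPKM (SD, n = 3 each), a ratio of 4.27 and a log2 fold change of -2.04 ± 0.35 (SE). Without control replicate 2 the log2 fold change was -1.67.

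The remaining 3 members were at or close to 0 in liver. Mup5 read 0.182, 0.859 and 0.476 FPKM in the control livers and was listed at 0 in all 3 med23Δli livers. Mup6 read 0.242, 0.489 and 0 FPKM in control and 0, 0.438 and 0.104 FPKM in med23Δli livers, with full overlap. Mup4, a gene known from glands rather than liver, was listed at 0 in all 6 libraries. Of 7 salivary or lacrimal gland markers, Smr3a, Dcpp1, Bpifa2, Cst10 and Pip were also listed at 0 in every library, Muc19 was above 0 in 2 libraries and there near 0, and Amy1, which liver expresses too, read 50.5 to 55.7 FPKM in control and 98.0 to 129 FPKM in med23Δli livers. All 3 of these members had a mean under 0.5 FPKM and were left out of the fit.

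**Figure D1:**
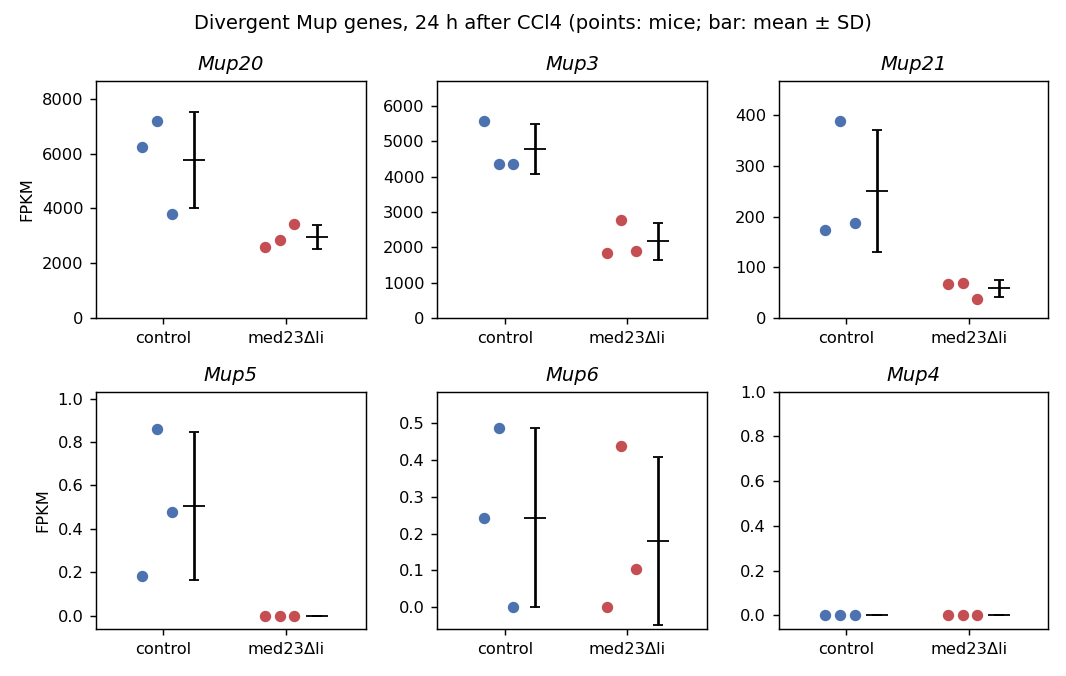
FPKM (y axis, linear, a separate scale in each panel) of the 6 divergent Mup genes in 3 control and 3 med23Δli livers; each point is a mouse and the black bar beside it the mean ± SD. Mup20, Mup3, Mup21 and Mup5 are lower in every med23Δli liver than in any control, Mup6 overlaps, and Mup4 is at 0 throughout.

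In all, 3 of the 6 members passed the filter of a mean of at least 0.5 FPKM. Of these, Mup3 and Mup21 met the threshold of adjusted p under 0.05 and more than 2-fold lower, which 3.45% of the 11956 genes tested met, with 4.45% meeting it in the higher direction. Mup20 missed it because its change was under 2-fold; without control replicate 3, its log2 fold change was -1.19 and it met the threshold too. Groups that did not overlap, with med23Δli lower, were seen in all 3 tested members and in 20.4% of all genes tested. With Mup5, which was under the filter, they were seen in 4 of the 6 members. Nothing is read from these counts, since the members were chosen on the same contrast. The median log2 fold change over all tested genes was 0.02.

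Ratios between members were taken within each liver. The ratio of Mup20 to Mup3 was 1.12, 1.65 and 0.870 in the control livers and 1.40, 1.02 and 1.82 in the med23Δli livers, so the groups overlapped and neither gene led in every animal. The log2 ratio of Mup21 to Mup20 was -5.17, -4.21 and -4.34 in control and -5.26, -5.35 and -6.48 in med23Δli livers, which did not overlap. The log2 ratio of Mup21 to its nearest relative Mup3 overlapped, with means of -4.35 ± 0.78 and -5.24 ± 0.43 (SD, n = 3 each).

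Set beside the rest of the family, Mup3 and Mup20 made up most of what Mup transcript was left in the med23Δli livers. All Mup rows together summed to 18744, 17912 and 12226 FPKM in the control livers and to 4667, 5931 and 5592 FPKM in the med23Δli livers, or 2.94%, 2.75% and 2.04% against 0.767%, 0.911% and 0.945% of all FPKM. The divergent members made up 64.1%, 66.8% and 68.4% of the Mup sum in control and 96.6%, 96.1% and 96.2% in med23Δli livers. That share was 66.4% ± 2.17 and 96.3% ± 0.28 (SD, n = 3 each), a difference of 29.9 percentage points, given as a description since the members were chosen with these values known. A share within a library does not depend on how the library was scaled.

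The shift lay in the other 14 rows, whose summed level went from 5516 ± 1482 to 200.2 ± 38.5 FPKM (SD, n = 3 each), 27.5-fold lower in the livers labelled med23Δli. The members' own sum went from 10779 ± 2093 to 5196 ± 616 FPKM, a ratio of 2.07. Mup20 held 33.4%, 40.2% and 31.1% of the Mup sum in control and 55.5%, 47.9% and 61.7% in med23Δli livers, without overlap, so its share was higher where its level was lower. Mup3 held 29.8%, 24.4% and 35.7% of the sum in control and 39.7%, 47.0% and 33.8% in med23Δli livers, which overlapped. Mup21 held 0.925% to 2.17% and 0.690% to 1.45%.

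**Figure D2:**
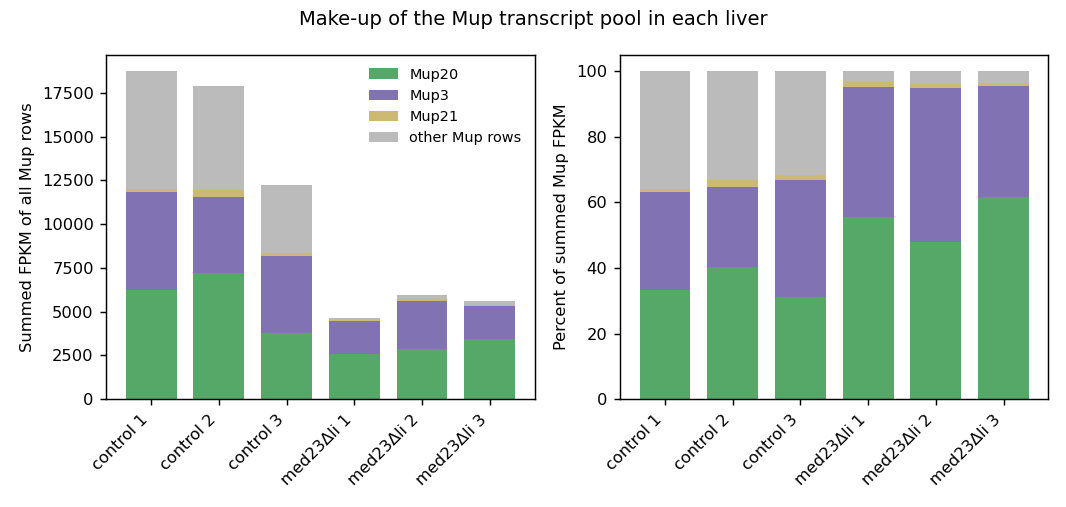
Summed FPKM of all 20 Mup rows (left) and its percent make-up (right) in each of the 6 livers, stacked by gene; Mup4, Mup5 and Mup6 are too low to be seen. The grey part, the other 14 rows, is the smaller part of every bar: the coloured members make up 64.1% to 68.4% of the sum in the control livers and 96.1% to 96.6% in the med23Δli livers.

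Mup7 was the most abundant of those other rows. It read 4210, 3563 and 2422 FPKM in the control livers, a level like that of Mup3, and 67.0, 81.9 and 48.8 FPKM in the med23Δli livers, a ratio of means of 51.6. The log2 ratio of Mup7 to Mup3, taken within each liver, was -0.41, -0.29 and -0.85 in control and -4.79, -5.09 and -5.28 in med23Δli livers. Means were -0.52 ± 0.29 and -5.05 ± 0.25 (SD, n = 3 each), so genes of similar level in the control lay far apart in the med23Δli livers. Mup14 went from 1722 ± 493 to 103.0 ± 33.8 FPKM, Mup1 from 209 ± 71.3 to 7.30 ± 2.03 FPKM, Mup11 from 118 ± 24.2 to 19.2 ± 5.06 FPKM and Mup12 from 49.3 ± 14.9 to 1.89 ± 0.83 FPKM (SD, n = 3 each). Ratios of these means were 16.7, 28.7, 6.16 and 26.1.

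Of the other 14 rows, 9 passed the filter, 8 of them met the threshold in the lower direction and none in the higher. Their log2 fold changes ran from -5.68 for Mup7 to 0.54 ± 1.44 (SE) for Mup19, with a median of -4.07. Mup19 read up to 4.34 FPKM and overlapped between groups. Apart from Mup19, each tested row of the near-identical set had a larger fold than each tested divergent member. The 8 rows that met the threshold ran from -2.36 to -5.68, the 3 tested members from -0.92 to -2.04. This is a description: the sets were chosen by similarity with these values known, and expression of Mup18 and Mup22 is not analysed here.

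**Figure D3:**
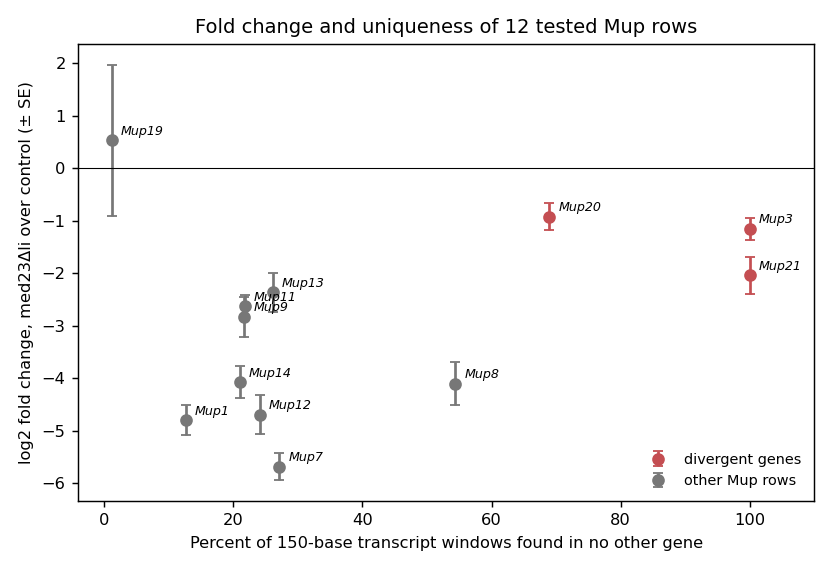
Log2 fold change ± SE (y axis, med23Δli over control) of the 12 tested Mup rows against the percent of 150-base stretches of their transcript found in no other gene (x axis). The red points are the divergent members at -0.92 to -2.04; of the grey points, all but Mup19 lie lower, including Mup8 at 54.4% and -4.10.

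Among genes of the growth hormone pathway, which drives Mup transcription, 11 of 12 listed passed the filter, 1 met the threshold in the lower direction and 0 in the higher. That was Igf1, the circulating growth factor that growth hormone induces in liver. It read 182, 140 and 152 FPKM in control against 69.6, 99.1 and 63.6 FPKM in the med23Δli livers (log2 fold change -1.05, limma, adjusted p = 0.0115). The call rested on single libraries. Without control replicate 1 the log2 fold change was -0.94, without med23Δli replicate 1 the adjusted p was 0.0535, and without med23Δli replicate 3 the log2 fold change was -0.92 (limma).

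No upstream component met the threshold. Stat5b, the transcription factor that growth hormone pulses activate in male liver, read 7.46, 7.29 and 8.31 FPKM in control and 11.1, 13.4 and 9.74 FPKM in med23Δli livers, 0.56 higher on the log2 scale (limma, adjusted p = 0.0391), under 2-fold. The receptor gene Ghr was at a log2 fold change of 0.36 (adjusted p = 0.153 by limma), its kinase gene Jak2 at 0.47 (0.0609) and Stat5a at 0.47 (0.120). The feedback inhibitors that growth hormone induces were at -0.07 for Socs2 (limma, adjusted p = 0.851), -1.11 for Socs1 (0.137) and 0.16 for Socs3 (0.555), with Cish at 3.69 to 11.4 FPKM and overlapping. Igfals, which stabilises IGF1 in plasma, was at 0.69 (limma, adjusted p = 0.0721). Bcl6, a repressor of STAT5 targets with higher expression in male liver, was at 1.45 (limma, adjusted p = 0.160), with control livers at 10.9, 1.37 and 2.67 FPKM. The list had a median log2 fold change of 0.36.

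Of 14 further listed regulators of Mup or liver transcription, 13 were tested, 1 met the threshold in the lower direction and 0 in the higher. The most abundant of them, Hnf4a, a nuclear receptor of hepatocyte identity, overlapped between groups at 99.9 to 196 and 89.8 to 100.2 FPKM (log2 fold change -0.55, limma, adjusted p = 0.126).

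**Figure D4:**
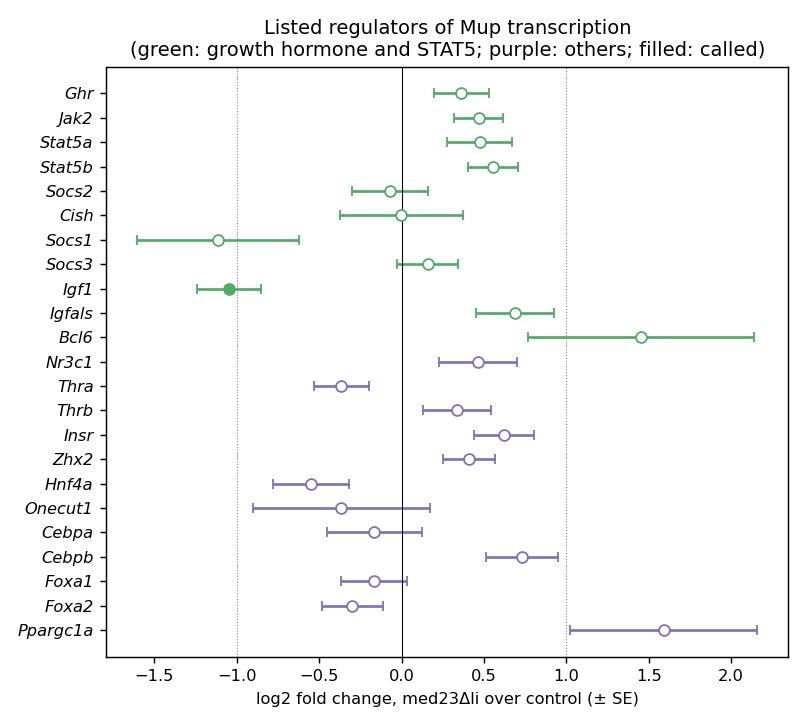
Log2 fold change ± SE (x axis, med23Δli over control, 3 livers each) of the tested growth hormone and STAT5 genes (green) and of other listed regulators shown here (purple); a filled point met the threshold, dotted lines mark 2-fold. Igf1 at -1.05 is the filled point.

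Other male-biased liver genes went in both directions. Of 16 listed, 15 were tested, 4 were called lower and 1 higher, with a median log2 fold change of -0.37. Lower were Ugt2b38, a glucuronosyltransferase (-3.15, adjusted p = 0.0387), Cyp7b1, an oxysterol hydroxylase (-1.83, adjusted p = 0.0176), Cyp4a12b, a fatty acid hydroxylase (-1.58, adjusted p = 0.0438), and Susd4, a complement regulator (-1.44, adjusted p = 0.0410), by limma. Each of these 4 lost its call when any of at least 3 of the 6 libraries was left out, med23Δli replicates 1, 2 and 3 among them in every case, with adjusted p of up to 0.110 for Ugt2b38, 0.0643 for Cyp7b1, 0.136 for Cyp4a12b and 0.106 for Susd4 (limma). Ugt2b38 also lost it under 4 other settings, Cyp4a12b under 3 and Susd4 under 4, besides the filter at 1 FPKM, which left Susd4 out. Control livers read 37.4, 8.19 and 2.03 FPKM of Ugt2b38, and its log2 fold change was -2.10 without control replicate 1 and -4.17 without control replicate 3. Slco1a1, an organic anion transporter, went the other way, from 10.3 to 16.3 FPKM in control to 40.1 to 43.7 FPKM in med23Δli livers (1.57, limma, adjusted p = 0.00318), and kept its call throughout. Gstp1, the most abundant on the list, overlapped at 1619 to 2935 and 1605 to 1973 FPKM (-0.33, limma, adjusted p = 0.317).

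Of 24 listed female-biased genes, 11 were tested, 2 were called higher and 1 lower, with a median log2 fold change of 0.92. A1bg, a plasma glycoprotein, read 0.326 to 0.704 FPKM in control and 2.90 to 4.34 FPKM in med23Δli livers (2.53, limma, adjusted p = 0.00275). Cyp2b10, a drug-inducible P450, was higher by 3.00 (limma, adjusted p = 0.0253) and lost the call without control replicate 1 or without med23Δli replicate 1 or 2 (adjusted p = 0.0652, 0.0763 and 0.0837). It also lost the call without a filter (limma, adjusted p = 0.0575), with robust moderation (0.0657) and with a replicate block (0.0554). Its log2 fold change was 2.24 without control replicate 2 and 3.74 without control replicate 3. Sult1e1, the estrogen sulfotransferase, was called lower at -2.10 (limma, adjusted p = 0.0172), and lost the call without med23Δli replicate 1 (adjusted p = 0.0603) and with a pseudocount of 1 (log2 fold change -0.99). Cyp4a14, the most abundant, read 174, 37.5 and 16.1 FPKM in med23Δli against 5.18 to 16.3 FPKM in control livers (2.18, limma, adjusted p = 0.0874).

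Of 12 listed lipocalins encoded outside the cluster, 9 were tested, 1 was called lower and 0 higher, with a median log2 fold change of -0.79. At an unadjusted p under 0.05, 4 were lower and 1 higher. The share of all genes under that p was not counted, so nothing is read from such counts. Obp2a, an odorant-binding lipocalin, read 18.4, 7.09 and 4.81 FPKM in control and 0.310, 1.60 and 0.761 FPKM in med23Δli livers (-3.36, limma, adjusted p = 0.0101). Rbp4, the retinol carrier of plasma and the most abundant of them, went the other way. It read 1954, 2495 and 1836 FPKM in control and 4103, 3867 and 3265 FPKM in med23Δli livers, higher by less than 2-fold (0.84, limma, adjusted p = 0.0171). Apom, a carrier of sphingosine-1-phosphate (-0.97, limma, adjusted p = 0.0180), and Ambp, the precursor of alpha-1-microglobulin and bikunin (-0.75, limma, adjusted p = 0.0167), were lower without reaching the fold threshold. Apom met it with quantile normalization and without control replicate 3. Of 21 abundant secreted hepatocyte proteins tested, 0 met the limma threshold, 5 were lower and 0 higher at an unadjusted p under 0.05, and the median was -0.16. At adjusted p under 0.05 and any size of change there were 2 of the 21, against 2517 of all 11956 genes tested. Their summed level was 75543 to 92818 FPKM in control and 65001 to 78741 FPKM in med23Δli livers. Alb, the most abundant, was at -0.36 (limma, adjusted p = 0.239).

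CCl4 injures hepatocytes around the central vein, and zonal markers differed between the groups beside the Mup genes. Of 12 listed pericentral genes, 11 were tested and 4 were called higher by limma, with a median log2 fold change of 0.42 for the list. They were Rgn, a calcium-binding lactonase (2.36, adjusted p = 0.00108), Cyp1a2, an aromatic amine P450 (1.62, adjusted p = 0.00293), Cyp2e1, the P450 that activates CCl4 (1.26, adjusted p = 0.00896), and Gulo, which makes vitamin C (1.23, adjusted p = 0.00489). None was called lower, and the list summed to 571 to 743 FPKM in control and 1374 to 1499 FPKM in med23Δli livers. Of 12 periportal genes, 3 were called lower by limma and none higher, with a median of -0.44. Among them were Cdh1, which encodes E-cadherin (-1.56, adjusted p = 0.0298 by limma), and Hal, which breaks down histidine (-1.45, adjusted p = 0.0101 by limma). Cdh1 lost the call when any 1 of 5 libraries, all but control replicate 3, was left out (limma, adjusted p of up to 0.103), and without a filter (0.0623). The part of zonation in the Mup levels was not tested.

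Whole liver also holds other cells, whose markers were read beside the Mup genes. Of 5 endothelial markers, 4 were called lower, with sums of 73.6 to 110 FPKM in control and 38.5 to 41.4 FPKM in med23Δli livers. Their part in the Mup result was not tested. None of 6 macrophage, 5 stellate, 4 cholangiocyte or 3 neutrophil markers met the limma threshold, with 2, 3, 0 and 1 of them at an unadjusted p under 0.05. Nothing is read from these unadjusted counts, since the share of all genes under that p was not counted. Of 3 erythroid markers 1 was called higher, though the median log2 fold change of the 3 was -0.40, and 4 lymphocyte markers were under the filter. Of 5 exocrine pancreas markers, 4 were listed at 0 in every library. Med23Δli replicate 2 stood apart in fat markers, with Adipoq at 5.65 and Ucp1 at 2.29 FPKM against at most 0.0907 and 0 FPKM in the other libraries, whereas Cidec, which injured or fatty liver also expresses, was called lower. Without this library the log2 fold changes were -1.34 for Mup3, -0.89 for Mup20 and -2.19 for Mup21.

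The genes whose levels ran most like each member were found by Pearson correlation of log2(FPKM + 0.1) over the 6 livers, among 5480 genes outside the family with a mean of at least 10 FPKM. All 6 points share the difference between the groups, so this is a description. Mup3 ran most like Sntb1 (r = 0.996), a syntrophin scaffold gene, then Igf1 (0.995) and Pkdcc (0.991), a secreted kinase gene. Mup20 ran most like Junb (0.994), an AP-1 factor gene, then Taco1 (0.992), a mitochondrial translation activator, and the complement gene C2 (0.990). Mup21 ran most like Rnf40 (0.9996), a histone H2B ubiquitin ligase gene, then Ccdc134 (0.999) and Apoc2 (0.997), the cofactor of lipoprotein lipase. The 3 lists had no gene in common.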

How the data were processed

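The authors trimmed adapters from 150-bp paired reads (TruSeq v2, 100 ng of total RNA, Illumina HiSeq), aligned them with TopHat to mm10 and deposited FPKM values from Cuffdiff for 24346 genes in 6 livers. Versions, gene annotation and the handling of multiply mapped reads are not given in the sources used here. The depth of each library cannot be recovered from the low FPKM values and is unknown; the study's methods give only a median over samples. The deposited columns of the authors' own comparison (fold changes and p-values) were not used.

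FPKM were taken as log2(FPKM + 0.1), which understates changes of low genes. Genes averaging 0.5 FPKM or more over the 6 libraries were fitted with limma 3.58.1 (R 4.3.3; moderated variances with a mean-variance trend, Benjamini-Hochberg adjustment over all 11956 genes). A gene was called at adjusted p under 0.05 and a log2 fold change over 1 in size. The fit was tested on simulated data first. The labels number separate livers, taken here as those of separate mice. The p-values weigh the difference between the groups against the spread between livers within a group. No block was used, since the methods describe no pairing of the numbers. Same-numbered replicates did not deviate together (r = -0.02, -0.05 and -0.12), which cannot exclude a shared litter or batch.

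The members and gene lists were chosen with earlier results of these data known. Named were all 6 members, the 5 most abundant other Mup rows and Mup19, all tested growth hormone genes, and of each other list the called genes (up to 4 per direction) and the most abundant, apart from some genes not reported here. The gland, pancreas, fat, Mup8, Apom and Ambp values were named after they were seen. Sequences came from GENCODE M21 transcripts and the RefSeq promoter table (GRCm38.p6), in which 4 of 6 members matched. Coding sequences were compared, over columns with a base in both, with Biopython 1.88. Alternatives were other pseudocounts, filters, scalings and variance models, a replicate block, and leaving out each library.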

Additional observations from a re-analysis of the deposited data

How the results depend on the processing

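Of the 16 alternatives run on the folds of Mup3, Mup20 and Mup21, 11 could move a fold, and the 3 genes were lower in the med23Δli livers under each of those. Leaving out each library in turn gave log2 fold changes of -1.34 to -1.03 for Mup3, -1.19 to -0.73 for Mup20 and -2.25 to -1.67 for Mup21. Quantile normalization gave -0.71 for Mup20. Of the members, 2 were called in the report and 2 or 3 under the alternatives: Mup5 joined without a filter, and Mup20 without control replicate 3 and with any size of change allowed. The members' share of the Mup sum differed by 28.7 to 30.9 percentage points. Other Mup rows called numbered 7 to 10, against 8.

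Counts over all genes moved more. With a pseudocount of 1, 229 genes were called lower and 600 in all, against 412 and 944. Any size of change at adjusted p under 0.05 gave 1133 lower, 1384 higher and 2517 in all, and by construction 2 growth hormone genes, 3 other Mup regulators, 4 lipocalins and 2 secreted proteins. Leaving out each library gave 268 to 529 lower, 319 to 730 higher and 587 to 1259 in all. The same left 0 to 1 growth hormone genes, 1 to 2 other Mup regulators, 1 to 7 male-biased genes, 1 to 4 female-biased genes, 1 to 2 lipocalins and 0 to 1 secreted proteins. Male-biased calls, 5 in the report, numbered 3 with a pseudocount of 1, 2 without a filter, 3 without a variance trend and 3 with robust moderation. Without a filter 2 other Mup regulators were called, and with quantile normalization 2 lipocalins. The cause of these moves was not tested. With the replicate block 353 genes were called lower and 477 higher, and 2 members. As the methods describe no pairing of the numbers, this is a hint from the data only.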
